A study of Mus musculus with 163 samples.

Results

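Prestin and 6 further effector genes of outer hair cells (OHCs) were followed through single hair cells of the mouse cochlea with and without the RNA-binding protein gene Rbm24. The 7 genes were Slc26a5, Aqp11, Strip2, Ppp1r17, Bmp6, Prcd and Ephx4, listed for their place in the OHC program, and all 7 were found among the 55291 genes of the count table. The 163 cells were taken at postnatal day 7 (P7) and fell into 4 groups of 56 Exp OHCs, 43 Ctrl OHCs, 26 Exp inner hair cells (IHCs) and 38 Ctrl IHCs. Exp mice were Atoh1P2A-Cre/P2A-Tdtomato; Rbm24flox/flox, in which Cre is made wherever Atoh1 is active. Ctrl mice were Atoh1P2A-Tdtomato/+, with intact Rbm24. Both groups carried tdTomato in the Atoh1 locus, but Cre and the modified second Atoh1 allele were present in Exp mice alone, so their effects cannot be told apart from that of Rbm24. Red cells were picked by hand and made into full-length cDNA with a Smart-Seq kit. What sorted a picked cell into the OHC or IHC group is not given in the sources used here, and the protocol text speaks of IHCs and "iOHCs".

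OHCs amplify sound by changing their length with membrane voltage, and prestin, the product of Slc26a5, is the motor protein that does this in the lateral wall. IHCs, which pass sound on to the auditory nerve, lack this motor. OHCs gain prestin and the rest of their effector program during the first postnatal weeks, after the general hair cell fate has been set by factors such as Atoh1 and Pou4f3, and the transcription factor Ikzf2 (helios) is known to drive part of it. Rbm24 binds RNA and is known for its control of alternative splicing.

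No label names an animal, so each group was 1 sample, cells were not taken as replicates, and no p-value was computed. Levels are CPM (a gene's counts scaled to a library of 1e+06 counts) of the counts summed over a group, with an exact Poisson 95% interval. Ratios carry an exact conditional binomial 95% interval. Both intervals cover the counting error of reads only. Reads were not marked with molecular identifiers, so the intervals leave out the error in counting molecules, and they say nothing of the spread between animals. A gene is called present in a cell at 10 CPM or more, and the share of cells has an exact binomial (Clopper-Pearson) 95% interval over these cells. Where no cell had the gene, the share that 3 cells would make is given as the limit instead. Share intervals treat cells as independent draws, so they too leave out the spread between animals and their overlap decides nothing between genotypes. A difference is called 2-fold from a log2 ratio of 1, among genes whose mean over both groups reaches 1 CPM.

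Total counts per cell lay between 5.47e+06 and 1.81e+07. Rbm24 itself was at 0.212 CPM in Exp OHCs, against 315 CPM in Ctrl OHCs, and at 1.51 CPM in Exp IHCs, against 431 CPM in Ctrl IHCs. The highest Exp IHC had 15.6 CPM and the lowest Ctrl OHC 78.8 CPM, so no cell went against its genotype label. Markers fixed for IHCs summed to 467 CPM in Exp OHCs, 1349 CPM in Ctrl OHCs, 2959 CPM in Exp IHCs and 5060 CPM in Ctrl IHCs, with Otof the highest of the 8 in each group. The IHC transcription factor gene Tbx2 was at 2.15 CPM in Exp OHCs and 0.546 CPM in Ctrl OHCs, against 154 CPM in Exp IHCs and 186 CPM in Ctrl IHCs. Y-linked transcripts without Xist were seen in 16 of 56 Exp OHCs, 32 of 43 Ctrl OHCs, 7 of 26 Exp IHCs and 26 of 38 Ctrl IHCs, so the sexes were unevenly spread over the groups. Beside the results below, 1 Ctrl OHC stands apart: it was the highest in Neurod6 and had 0.156 CPM of Slc26a5.

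In OHCs, 4 of the 7 genes were 2-fold or more lower in Exp cells. These were Slc26a5, Aqp11, Ppp1r17 and Bmp6, while Strip2 was lower by less than 2-fold and Prcd and Ephx4 stood at nearly the same summed level in both groups. Among all 14588 genes above the filter 13.1% were 2-fold or more lower and 18.4% were 2-fold or more higher in Exp OHCs, and their median log2 ratio was 0.06. The 7 genes had a median log2 ratio of -2.77. They were chosen with earlier results of these data known, so their count and median are descriptions and not a test. All 7 passed the filter in this comparison. All 4 lower genes were present in a smaller share of Exp OHCs, Ppp1r17 in none. Slc26a5, Aqp11 and, to a smaller degree, Bmp6 were also lower by the median of the cells that still had them.

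**Figure D1:**
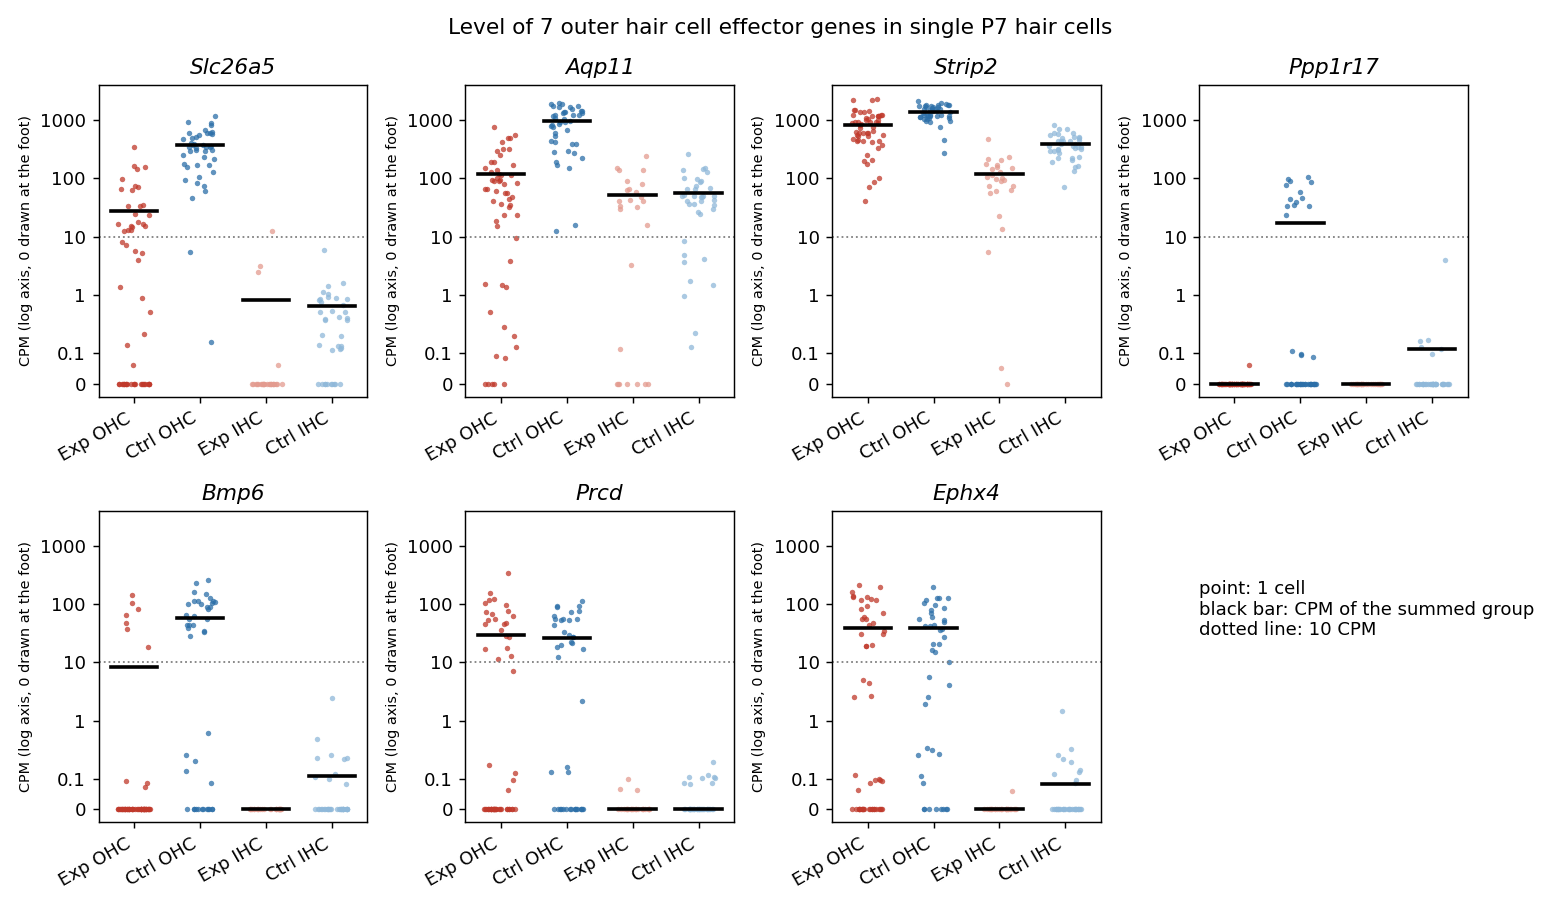
Level of each of the 7 genes in every cell (points, CPM on a log axis with 0 drawn at the foot) in Exp OHCs, Ctrl OHCs, Exp IHCs and Ctrl IHCs, with the CPM of the summed group as a black bar and 10 CPM as a dotted line. Slc26a5 and Aqp11 spread from 0 upwards in Exp OHCs while 41 of 43 Ctrl OHCs for Slc26a5 and all 43 for Aqp11 lie above the line, and Prcd and Ephx4 split into cells near 0 and cells above the line in both OHC groups.

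Slc26a5 (ENSMUSG00000029015.9, chr5:21810655-21865604 on the minus strand of GRCm38) encodes prestin. Over Exp OHCs the lowest cell had 0, the median 2.64 and the highest 349 CPM, and over Ctrl OHCs the lowest had 0.156, the median 344 and the highest 1169 CPM. The ranges overlap, but the Exp quartiles of 0 and 19.3 CPM lie wholly below the Ctrl quartiles of 170 and 526 CPM. The summed level was 27.5 CPM in Exp OHCs (27.1 to 27.9), against 376 CPM in Ctrl OHCs (374 to 378), a 13.7-fold lower level (log2 ratio -3.77, -3.80 to -3.75). The gene was present in 23 of 56 Exp OHCs (41.1%, 28.1 to 55.0%), against 41 of 43 Ctrl OHCs (95.3%, 84.2 to 99.4%), and 22 Exp OHCs but no Ctrl OHC had no count at all. The Exp OHCs in which it was present had a median of 33.5 CPM, against 346 CPM in such Ctrl OHCs, so the remaining transcript was low in most of the cells that kept it. A single Exp OHC held 24.9% of the group's Slc26a5 counts, and the log2 ratio was -4.04 without the highest cell of each group.

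Aqp11 (ENSMUSG00000042797.9, chr7:97724006-97738289, minus strand) encodes an aquaporin of intracellular membranes. Its lowest, median and highest cells had 0, 58.6 and 762 CPM in Exp OHCs, against 12.3, 941 and 1973 CPM in Ctrl OHCs. Summed, it stood at 118 CPM in Exp OHCs (118 to 119) and 966 CPM in Ctrl OHCs (963 to 969), 8.16-fold lower (log2 ratio -3.03, -3.04 to -3.02). Aqp11 was present in 40 of 56 Exp OHCs (71.4%, 57.8 to 82.7%) and in all 43 Ctrl OHCs. Like prestin, it was lower in the cells that kept it, with a median of 94.0 CPM in Exp OHCs where it was present, against 941 CPM in Ctrl OHCs.

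Strip2 (ENSMUSG00000039629.14, chr6:29917012-29959681, plus strand) encodes a scaffold of the STRIPAK complex, which joins striatins to the phosphatase PP2A and to kinases. Strip2 was present in every OHC of both groups. Exp OHCs had 40.2, 787 and 2287 CPM at the lowest, median and highest cell, against 272, 1373 and 2099 CPM in Ctrl OHCs, and the groups overlap over most of their range. The summed level was 832 CPM in Exp OHCs (830 to 834), against 1379 CPM in Ctrl OHCs (1376 to 1383), a log2 ratio of -0.73 (-0.74 to -0.72).

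Ppp1r17 (ENSMUSG00000002930.6, chr6:56017497-56032689, plus strand) encodes an inhibitor of the phosphatases PP1 and PP2A that is best known from cerebellar Purkinje cells. A single count was found over all 56 Exp OHCs. In Ctrl OHCs the summed level was 16.9 CPM (16.5 to 17.3), the median cell had 0 and the highest had 104 CPM. The log2 ratio was -13.57, with a counting interval of -18.87 to -11.09 that is wide because of the 1 count. The gene was present in 0 of 56 Exp OHCs, which allows a share of up to 5.36%, against 13 of 43 Ctrl OHCs (30.2%, 17.2 to 46.1%). Ppp1r17 was therefore a gene of a minority of control cells, and no Ctrl OHC lay between 1 and 10 CPM.

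Bmp6 (ENSMUSG00000039004.6, chr13:38345107-38500302, plus strand) encodes a secreted ligand of the bone morphogenetic protein (BMP) family. The median Exp OHC had 0 and the highest 141 CPM, while the median Ctrl OHC had 43.1 and the highest 254 CPM. The summed level was 8.47 CPM in Exp OHCs (8.26 to 8.69), against 57.9 CPM in Ctrl OHCs (57.1 to 58.6), a log2 ratio of -2.77 (-2.81 to -2.73). It was present in 7 of 56 Exp OHCs (12.5%, 5.18 to 24.1%), against 26 of 43 Ctrl OHCs (60.5%, 44.4 to 75.0%). Where it was present its median level was 66.1 CPM in Exp OHCs and 87.9 CPM in Ctrl OHCs, so the groups differed mainly in how many cells had it. Exons of Bmp6 share 224 bases with the antisense gene Txndc5, and the strand setting of the counting is not given in the sources used here. Txndc5 was at 36.5 CPM in Exp OHCs and 14.9 CPM in Ctrl OHCs, so the sums of the pair differed in opposite directions.

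Prcd (ENSMUSG00000075410.13, chr11:116653534-116668389, plus strand) encodes a small protein of photoreceptor discs, whose loss causes progressive rod-cone degeneration in dogs and humans. Exp OHCs reached 337 CPM with a median of 0, and Ctrl OHCs reached 112 CPM with a median of 16.8 CPM. The summed level was 29.3 CPM in Exp OHCs (28.9 to 29.7), against 26.0 CPM in Ctrl OHCs (25.5 to 26.5), a log2 ratio of 0.17 (0.13 to 0.20). It was present in 22 of 56 Exp OHCs (39.3%, 26.5 to 53.2%), against 23 of 43 Ctrl OHCs (53.5%, 37.7 to 68.8%). The cells with Prcd had a median of 54.8 CPM in Exp OHCs and 52.8 CPM in Ctrl OHCs. Without the cells at 100 CPM or more of summed supporting cell markers, an alternative chosen after seeing the data, the log2 ratio was 0.85, and it was 0.02 when the highest cell was left out of both groups. Prcd shares 201 exonic bases with the antisense gene Cygb, so its reads may be mixed with those of Cygb if strand was not used. Cygb was at 15.4 CPM in Exp OHCs and 15.0 CPM in Ctrl OHCs, and both genes were present together in 11 Exp OHCs and 8 Ctrl OHCs.

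Ephx4 (ENSMUSG00000033805.12, chr5:107402736-107430035, plus strand) encodes a member of the epoxide hydrolase family. Its median and highest cells had 0.108 and 210 CPM in Exp OHCs, against 20.8 and 200.03 CPM in Ctrl OHCs. Summed, it was at 38.3 CPM in Exp OHCs (37.8 to 38.7) and 39.1 CPM in Ctrl OHCs (38.5 to 39.8), a log2 ratio of -0.03 (-0.06 to -0.00436). Ephx4 was present in 23 of 56 Exp OHCs (41.1%, 28.1 to 55.0%) and 25 of 43 Ctrl OHCs (58.1%, 42.1 to 73.0%). Where present, the median was 69.5 CPM in Exp OHCs and 53.9 CPM in Ctrl OHCs. The nearly equal sums of Prcd and Ephx4 came from smaller shares of Exp OHCs with a higher mean level in the cells that had the gene. That mean was 73.1 CPM in Exp OHCs and 49.7 CPM in Ctrl OHCs for Prcd, and 86.5 CPM in Exp OHCs and 66.6 CPM in Ctrl OHCs for Ephx4. The median cell lay near 0 in Exp OHCs alone, where 3 counts in a cell of median total counts stood in as a floor. The resulting log2 ratios of the median cells, -6.16 for Prcd and -6.47 for Ephx4, are bounds set by that floor. Among cells with Xist alone the log2 ratio of Ephx4 was 0.67.

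**Figure D2:**
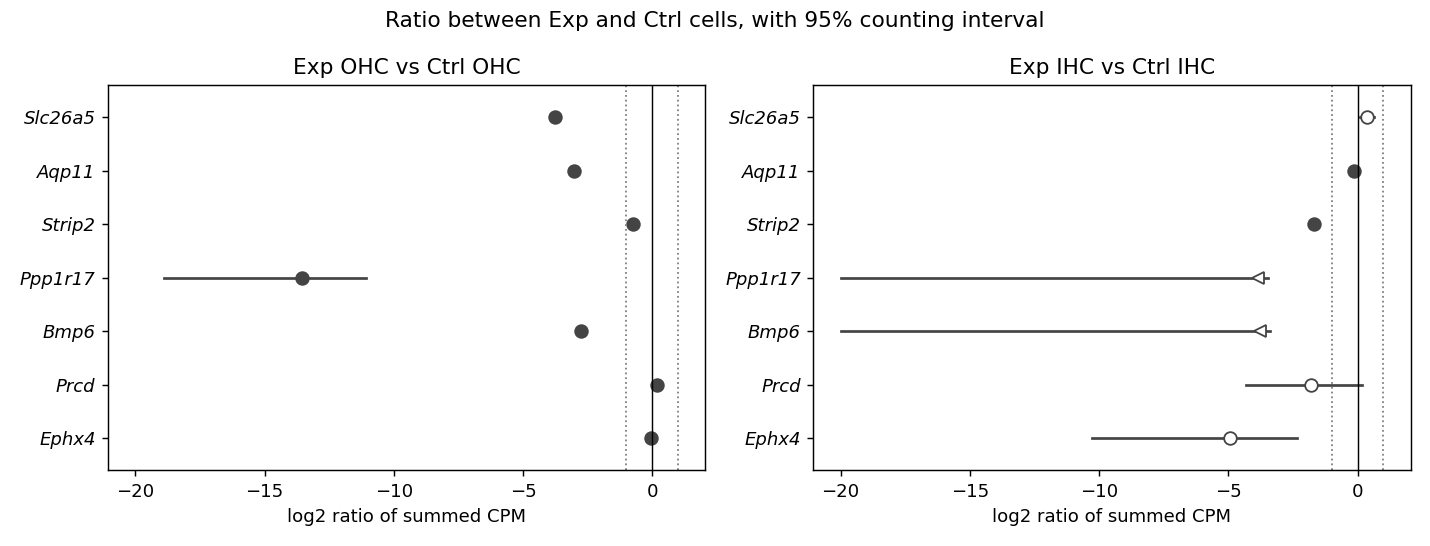
Log2 ratio of summed CPM of each gene between Exp and Ctrl cells, in OHCs (left panel) and IHCs (right panel), with lines for the 95% counting interval and dotted lines at 2-fold. Open symbols mark genes under 1 CPM in the mean of both groups, and triangles with a line running off to the left mark bounds where the Exp sum was 0. Slc26a5, Aqp11, Ppp1r17 and Bmp6 lie left of the dotted lines in OHCs, and Strip2 does so in IHCs.

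To show the sequence at the starts of the genes that were lower, the RefSeq promoter windows (GRCm38.p6) of Slc26a5, Aqp11 and Bmp6 are printed beside that of Prcd, whose sum was nearly equal. Each runs 5′ to 3′ on the gene's own strand from position -200 to 20 around the annotated start. Capitals mark the letters CAGNTG, an E-box pattern with any base at N, and TGGGAA, the core read by Ikaros family factors such as Ikzf2, on either strand. The CAGNTG matches printed here, in Slc26a5 and Bmp6, both read CACCTG, and no factor is assigned to them.
Slc26a5: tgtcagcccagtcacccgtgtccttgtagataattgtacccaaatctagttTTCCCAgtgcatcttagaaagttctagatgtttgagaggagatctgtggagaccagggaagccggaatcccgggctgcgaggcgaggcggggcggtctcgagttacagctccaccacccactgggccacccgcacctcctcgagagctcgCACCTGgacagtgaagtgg
Aqp11: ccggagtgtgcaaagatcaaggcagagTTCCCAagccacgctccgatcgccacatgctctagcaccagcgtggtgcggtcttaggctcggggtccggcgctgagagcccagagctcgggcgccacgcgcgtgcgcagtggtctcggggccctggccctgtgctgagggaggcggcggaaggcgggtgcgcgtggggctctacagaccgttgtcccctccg
Bmp6: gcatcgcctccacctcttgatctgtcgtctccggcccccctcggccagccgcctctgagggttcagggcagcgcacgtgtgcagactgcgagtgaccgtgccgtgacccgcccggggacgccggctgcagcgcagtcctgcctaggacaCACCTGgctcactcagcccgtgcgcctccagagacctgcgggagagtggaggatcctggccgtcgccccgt
Prcd: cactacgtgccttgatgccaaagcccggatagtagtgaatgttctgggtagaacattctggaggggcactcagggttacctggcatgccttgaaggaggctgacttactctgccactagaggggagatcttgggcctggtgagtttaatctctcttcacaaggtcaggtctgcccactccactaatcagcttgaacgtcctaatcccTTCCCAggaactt
The stretches are chr5:21865585-21865804 and chr7:97738228-97738447 on the minus strand and chr13:38345516-38345735 and chr11:116656908-116657127 on the plus strand.

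Motifs were searched on both strands of the whole window, 250 bases before to 50 bases after the start, and 6 of the 7 genes matched an entry, Ephx4 with 2 windows. CAGNTG was found once in the windows of Slc26a5 (position 2), Strip2 (position -184) and Bmp6 (position -51) and in 1 of the Ephx4 windows (positions -223 and -90), and 51.4% of all 32851 promoters of that length hold it. TGGGAA was found in the windows of Slc26a5 (position -149), Aqp11 (position -173) and Prcd (position 8) and in the same Ephx4 window (position -161), against 25.6% of all promoters. TATAAA was in none of these windows, against 13.6% of all promoters. No match overlapped another. Genes that were lower and genes with equal sums both hold either motif, and a match of letters is not a binding site. The Prcd window had 51.0% G and C and those of Ephx4 had 73.3% and 41.3%, while the windows of Slc26a5, Aqp11, Strip2 and Bmp6 had 58.0 to 69.3%, against a median of 52.7% over all promoters.

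Per kilobase of merged exons, a scale that sets genes against each other by annotated length, the order of the 7 genes differed between the OHC groups. In Exp OHCs Strip2 was highest at 99.8 CPM per kilobase, followed by Ephx4 at 23.2, Prcd at 19.1, Aqp11 at 12.6, Slc26a5 at 8.95, Bmp6 at 2.17 and Ppp1r17 at 0.00079. In Ctrl OHCs the order was Strip2 at 166, Slc26a5 at 123, Aqp11 at 103, Ephx4 at 23.8, Prcd at 17.0, Bmp6 at 14.8 and Ppp1r17 at 9.61 CPM per kilobase. On this scale prestin and Aqp11 stood above Ephx4 and Prcd in Ctrl OHCs and below them in Exp OHCs. By CPM, prestin stood below them in Exp OHCs as well, but Aqp11 stood above them. The place of Aqp11 thus rests on its 9418 merged exonic bases, against 1646 for Ephx4 and 1534 for Prcd. Which isoforms these cells express was not examined. Counting intervals of neighbours in these orders do not overlap, but whether neighbours differ beyond the spread between animals cannot be told.

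Within single cells, fewer of the 7 genes were present together in Exp OHCs. The median number present was 3 in Exp OHCs, against 5 in Ctrl OHCs, and 2 in both IHC groups. Cells with 2 or fewer of the 7 genes made up 23 of 56 Exp OHCs (41.1%, 28.1 to 55.0%), against 1 of 43 Ctrl OHCs (2.33%, 0.0589 to 12.3%). At the other end, 3 of 56 Exp OHCs (5.36%, 1.12 to 14.9%) had 6 or more genes, against 16 of 43 Ctrl OHCs (37.2%, 23.0 to 53.3%), and all 7 were seen in 0 Exp OHCs and 3 Ctrl OHCs. The whole distribution lay lower in Exp OHCs, where 9 cells had 1, 14 had 2, 10 had 3, 14 had 4, 6 had 5 and 3 had 6 genes. In Ctrl OHCs 1 cell had 2, 2 had 3, 13 had 4, 11 had 5, 13 had 6 and 3 had 7 genes. Without Ppp1r17, which no Exp OHC had, the share with 2 or fewer was again 41.1% of Exp OHCs and 2.33% of Ctrl OHCs. Thinning each cell to 5000000 counts changed neither share.

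**Figure D3:**
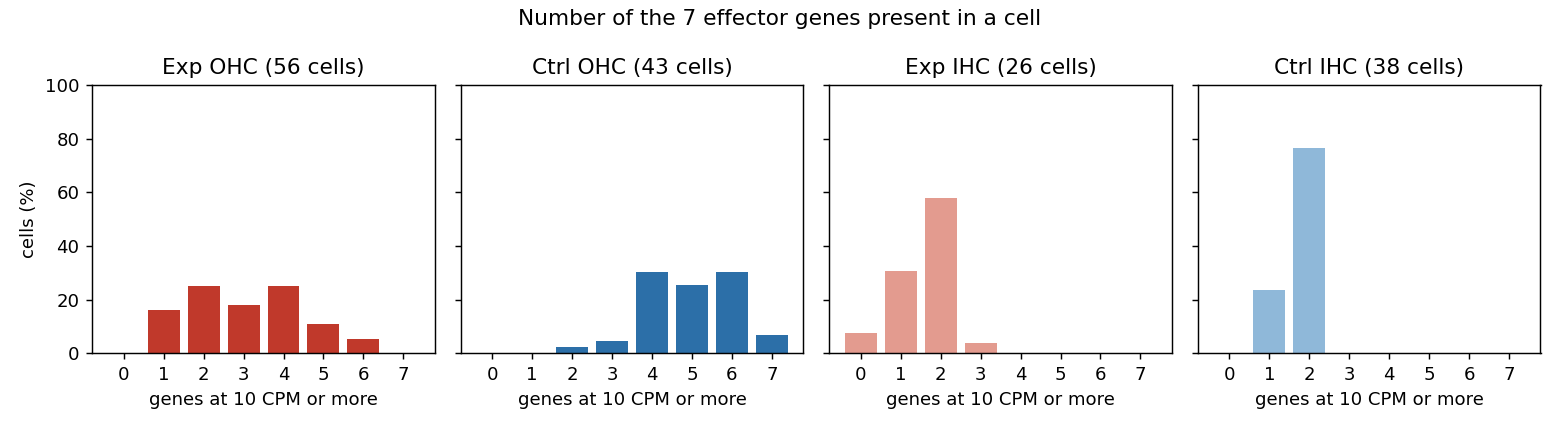
Share of cells (%) by the number of the 7 genes at 10 CPM or more, in Exp OHCs, Ctrl OHCs, Exp IHCs and Ctrl IHCs. Exp OHCs range from 1 to 6 genes and Ctrl OHCs from 2 to 7, while nearly all IHCs have 2 or fewer.

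The share with 2 or fewer genes lay higher in Exp OHCs in both sexes. Among cells with Y-linked transcripts it was 25.0% of 16 Exp OHCs and 0% of 32 Ctrl OHCs, and among cells with Xist 45.9% of 37 Exp OHCs and 10.0% of 10 Ctrl OHCs. The log2 ratio of Slc26a5 was -3.38 in cells with Y-linked transcripts and -4.08 in cells with Xist. The transcript Gm15772 also divided the cells unevenly: 16 of 56 Exp OHCs and 25 of 43 Ctrl OHCs had under 40 CPM. All of these were cells with Y-linked transcripts, and the 16 Exp OHCs are the same cells in both splits, so the splits are not separate checks. In these the share with 2 or fewer genes was 25.0% in Exp OHCs and 0% in Ctrl OHCs, and in the other cells 47.5% in Exp OHCs and 5.56% in Ctrl OHCs.

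The combinations show which genes were present in the same cells. Whether any were joined more often than their separate shares imply was not tested. The commonest in Exp OHCs was Aqp11 with Strip2 alone, in 11 cells, followed by Strip2 with none of the others, in 9 cells. These are also the 2 commonest combinations in IHCs, where Aqp11 with Strip2 was seen in 15 of 26 Exp IHCs and 29 of 38 Ctrl IHCs and Strip2 alone in 7 Exp IHCs and 9 Ctrl IHCs. In Ctrl OHCs only 1 cell had Aqp11 with Strip2 and no other, and none had Strip2 alone, and the commonest combination was Slc26a5, Aqp11, Strip2 and Ephx4 in 6 cells. Prestin and Aqp11 were present together in 19 Exp OHCs, prestin without Aqp11 in 4, Aqp11 without prestin in 21 and neither in 12. In Ctrl OHCs both were present in 41 cells, Aqp11 without prestin in 2 and neither in 0. The absence was often partial: 3 Exp OHCs kept Slc26a5, Aqp11, Bmp6, Prcd and Ephx4 together, against 8 Ctrl OHCs, and 9 Exp OHCs but 0 Ctrl OHCs had none of these 5.

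**Figure D4:**
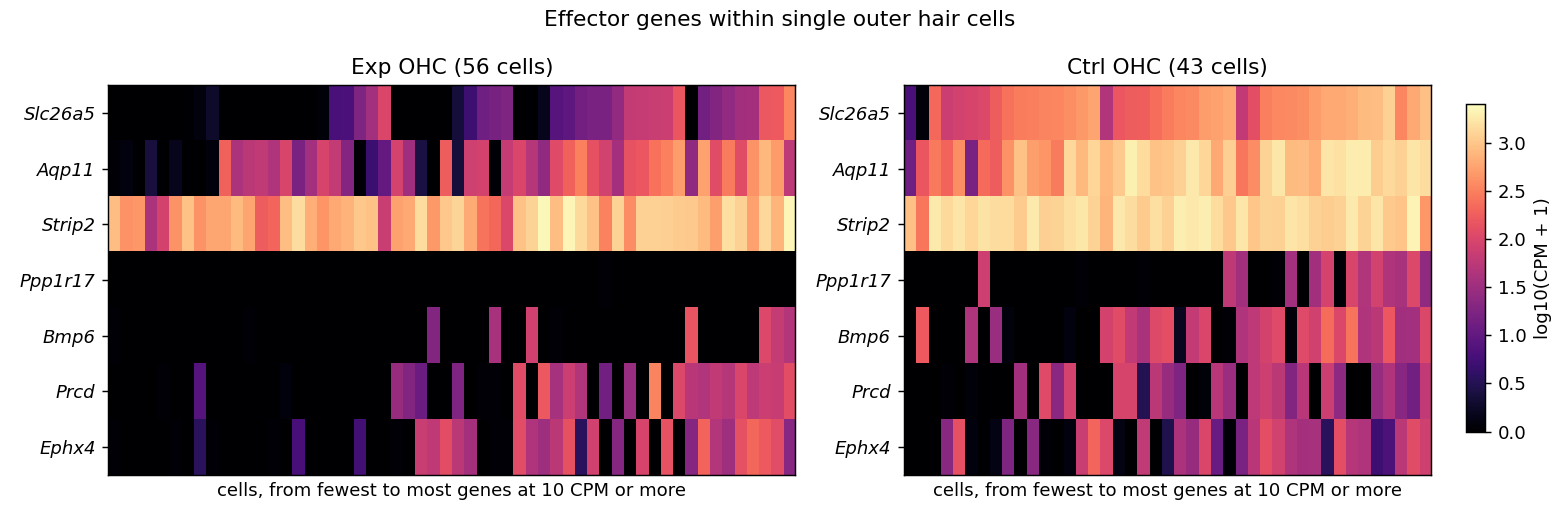
Level of the 7 genes (rows) in each Exp OHC (left panel) and Ctrl OHC (right panel), coloured by log10(CPM + 1), with cells sorted from the fewest to the most genes at 10 CPM or more. Strip2 is bright in every OHC, the left end of the Exp panel holds the 9 cells with Strip2 alone, and Ppp1r17 is dark across all 56 Exp OHCs.

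Across cells, Aqp11 was the member that followed Slc26a5 most closely. Among 7904 genes at 20 CPM or more in either OHC group, it was the fourth most like Slc26a5 by Spearman rho, in Exp OHCs (rho 0.50, 56 cells) as in Ctrl OHCs (rho 0.68, 43 cells). In Exp OHCs Prcd followed with rho 0.39, Ephx4 with 0.27, Strip2 with 0.24 and Bmp6 with 0.04. In Ctrl OHCs Ephx4 had rho 0.32, Prcd 0.23, Bmp6 0.21 and Strip2 0.08. Ppp1r17, under the 20 CPM needed for that ranking, had rho 0.56 with Slc26a5 in Ctrl OHCs, where all 13 cells with Ppp1r17 also had Slc26a5. The median over all genes was -0.02 in Exp OHCs and 0.00 in Ctrl OHCs. These values are descriptions over cells that share batches, animals and depth in ways that the labels do not give.

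**Figure D5:**
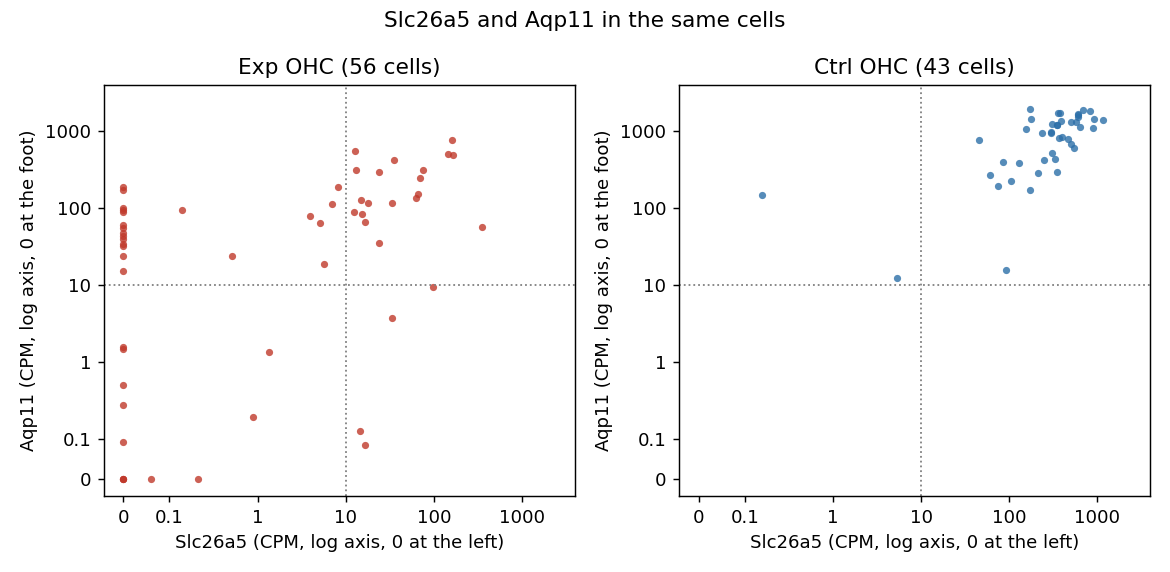
Slc26a5 against Aqp11 in each Exp OHC (left panel) and Ctrl OHC (right panel), both in CPM on log axes with 0 at the foot or left, and dotted lines at 10 CPM. Of 43 Ctrl OHCs, 41 lie above and to the right of both dotted lines, whereas the 56 Exp OHCs lie on every side of them, with 21 at the upper left.

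The 10 genes most like Slc26a5 in Exp OHCs were Tmem145, Rnd1, Ccz1, Aqp11, Tmem252, Bhlhe40, 9530085L11Rik, Tmx3, Anp32b and Ccn4, with rho between 0.48 and 0.51. In Ctrl OHCs they were Bhlhe40, Homer2, Ryr1, Aqp11, Lmod3, Apmap, Lgmn, Car7, Car2 and Tmc1, with rho between 0.64 and 0.76. Aqp11 and Bhlhe40, which encodes a basic helix-loop-helix repressor, were in both lists. Bhlhe40 was at 70.7 CPM in Exp OHCs, 376 CPM in Ctrl OHCs, 0.011 CPM in Exp IHCs and 7.05 CPM in Ctrl IHCs.

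The number of the 7 genes present in an Exp OHC varied with other hair cell genes. Its Spearman rho over 56 cells was 0.62 with Ikzf2, 0.53 with Ocm, which encodes the calcium buffer oncomodulin, and -0.48 with Insm1, which encodes a transcription factor of early OHC development. It was 0.57 with the summed pan hair cell genes, 0.36 with the mitochondrial share of counts and -0.46 with the summed immune markers, nearly all of which was C1qb. With total counts it was 0.07 and with genes detected 0.05. In Ctrl OHCs it was 0.57 with Ikzf2, 0.51 with Ocm, -0.12 with Insm1, -0.32 with the pan hair cell genes, -0.26 with the mitochondrial share and -0.01 with total counts. The part of these measures in the number of genes present was not tested. Ikzf2 was at 39.9 CPM in Exp OHCs and 174 CPM in Ctrl OHCs, and Insm1 at 18.7 CPM in Exp OHCs and 3.81 CPM in Ctrl OHCs. The median Exp OHC had 0.148 CPM of Ikzf2 and 0.0788 CPM of Ocm, so the rho of either gene there ranks many cells at or near 0.

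IHCs hold 2 of the 7 genes at more than trace level, Aqp11 and Strip2, and only these passed the filter between Exp and Ctrl IHCs. Of the 2, Strip2 was 2-fold or more lower, where 11.7% of 14557 genes were. It was present in 23 of 26 Exp IHCs (88.5%, 69.8 to 97.6%) and in all 38 Ctrl IHCs. Exp IHCs had 0, 99.9 and 466 CPM of Strip2 at the lowest, median and highest cell, against 72.2, 355 and 823 CPM in Ctrl IHCs. The summed level was 119 CPM in Exp IHCs (118 to 120), against 383 CPM in Ctrl IHCs (381 to 385), a log2 ratio of -1.69 (-1.70 to -1.67). Of these 2 genes, Strip2 had a ratio further from 0 in IHCs than in OHCs, a difference that could not be tested with 1 sample a group.

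Aqp11 was at 51.0 CPM in Exp IHCs (50.3 to 51.8) and 55.4 CPM in Ctrl IHCs (54.6 to 56.2), a log2 ratio of -0.12 (-0.15 to -0.09). Aqp11 was present in 17 of 26 Exp IHCs (65.4%, 44.3 to 82.8%) and 29 of 38 Ctrl IHCs (76.3%, 59.8 to 88.6%). This ratio moved with the cells used: it was -1.97 in the 7 Exp IHCs and 26 Ctrl IHCs with Y-linked transcripts and -0.22 in the 19 Exp IHCs and 12 Ctrl IHCs with Xist. In the 7 Exp IHCs and 23 Ctrl IHCs under 40 CPM of Gm15772 it was -1.72, so both genes were then 2-fold or more lower. The 7 Exp IHCs are the same in both of these subsets. The other 5 genes were at trace level in IHCs. Slc26a5 had 0.825 CPM in Exp IHCs and 0.640 CPM in Ctrl IHCs and was present in 1 of 26 Exp IHCs, at 12.6 CPM, and 0 of 38 Ctrl IHCs, which allows a share of up to 7.89%. That 1 Exp IHC held 71.8% of the group's Slc26a5 counts. Ppp1r17 and Bmp6 had 0 counts in Exp IHCs and 41 and 39 counts in Ctrl IHCs. Prcd had 3 counts in Exp IHCs and 10 in Ctrl IHCs, and Ephx4 had 1 in Exp IHCs and 29 in Ctrl IHCs.

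The 7 genes were chosen as OHC genes with earlier results of these data known. Their excess over IHCs is therefore neither a result nor an independent check of the labels. In Ctrl cells all 7 were 2-fold or more higher in OHCs, where 15.3% of 14445 genes were. Slc26a5 was 588-fold, Prcd 907-fold, Bmp6 517-fold, Ephx4 470-fold and Ppp1r17 144-fold higher in Ctrl OHCs than in Ctrl IHCs, Aqp11 was 17.4-fold higher and Strip2 3.60-fold higher. In Exp cells 6 genes passed the filter and all 6 were 2-fold or more higher in OHCs, where 14% of 14769 genes were. Slc26a5 was 33.3-fold, Aqp11 2.32-fold and Strip2 7.01-fold higher in Exp OHCs than in Exp IHCs. Bmp6 was at least 1030-fold higher, against a floor of 3 counts over the Exp IHCs. Prcd and Ephx4 had log2 ratios of 11.80 (10.25 to 14.07) and 13.77 (11.29 to 19.07), with 3 and 1 counts in Exp IHCs. Aqp11 depended on the cells used: its log2 ratio was 1.21 over all Exp cells, 0.84 in cells with Xist and 0.75 in cells at 40 CPM or more of Gm15772, where 5 genes were 2-fold or more higher. In cells with Y-linked transcripts it was 3.48, against 3.15 for Strip2, and from the median cells it was 0.67.

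Relatives and partners of the 7 genes were described from lists chosen by function, each by its members at 1 CPM or more. Of all 14588 genes above that filter, 13.1% were 2-fold or more lower and 18.4% higher in Exp OHCs. Each list or marker count between the OHC groups below stands beside these shares, and no list was tested. Of 4 such SLC26 genes in OHCs, 3 were 2-fold or more lower in Exp cells, and the 2 other than Slc26a5 were low: Slc26a2, a sulfate transporter gene, was at 3.34 CPM in Exp OHCs and 6.75 CPM in Ctrl OHCs (log2 ratio -1.01), and Slc26a8, an anion transporter gene known from sperm, was at 0.565 CPM in Exp OHCs and 1.51 CPM in Ctrl OHCs (log2 ratio -1.42). Of 3 aquaporin genes 2 were lower, and Aqp5, a plasma membrane water channel gene, was at 0.00416 CPM in Exp OHCs, against 24.6 CPM in Ctrl OHCs (log2 ratio -12.53, -14.81 to -10.98, with 3 counts in Exp OHCs). Of 13 STRIPAK genes 12 lay within 2-fold, with a median of -0.10. Strn, a striatin gene, was at 36.3 CPM in Exp OHCs, against 73.0 CPM in Ctrl OHCs (log2 ratio -1.01).

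Of 14 genes for PP1 and PP2A catalytic subunits and inhibitors, 4 were 2-fold or more lower, 2 higher and 8 within 2-fold, with a median of 0.05. Beside Ppp1r17, the inhibitor gene Ppp1r1a was at 6.11 CPM in Exp OHCs, against 114 CPM in Ctrl OHCs (log2 ratio -4.22), and the catalytic subunit gene Ppp1cb at 794 CPM in Exp OHCs, against 2125 CPM in Ctrl OHCs (log2 ratio -1.42). In the other direction Ppp1r14a, an inhibitor of myosin phosphatase, was at 234 CPM in Exp OHCs, against 40.5 CPM in Ctrl OHCs (log2 ratio 2.53). Of 5 BMP ligand genes 2 were lower and 2 higher, and after Bmp6 the lowest was Bmp3, at 47.3 CPM in Exp OHCs and 120 CPM in Ctrl OHCs (log2 ratio -1.35). Of 15 BMP receptor, Smad and target genes 10 lay within 2-fold, 2 were lower and 3 higher, near the 13.1% and 18.4% over all genes. Among them, the receptor gene Bmpr2 was at 23.9 CPM in Exp OHCs, against 48.6 CPM in Ctrl OHCs (log2 ratio -1.02). The target gene Id2 was at 82.1 CPM in Exp OHCs, against 35.9 CPM in Ctrl OHCs (log2 ratio 1.19). Of 4 BMP antagonist genes 1 was lower and 3 higher, among them Bambi, a decoy receptor gene, at 48.4 CPM in Exp OHCs and 15.6 CPM in Ctrl OHCs (log2 ratio 1.64).

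All 3 epoxide hydrolase genes lay within 2-fold, with Ephx1 at 155 CPM in Exp OHCs and 197 CPM in Ctrl OHCs. Of 5 photoreceptor disc genes 0 were lower and 3 higher, and the disc rim gene Prph2 was at 121 CPM in Exp OHCs and 91.8 CPM in Ctrl OHCs (log2 ratio 0.40). Among 12 other OHC genes 6 were 2-fold or more lower, 2 higher and 4 within 2-fold, with a median of -1.14. Ocm was lowest, with 18.6 CPM in Exp OHCs against 4951 CPM in Ctrl OHCs (log2 ratio -8.06). Next came the carbonic anhydrase gene Car7 at -5.59 and the calcium-binding protein gene Sri at -2.87. Car7 was nearly as high in Ctrl IHCs (590 CPM) as in Ctrl OHCs (610 CPM). Exp IHCs had 88.7 CPM of Car7, so its lower level was not limited to OHCs. Of the 11 listed genes above the filter between Ctrl groups, 7 were 2-fold or more higher in OHCs and 4 within 2-fold. Of the 10 above the filter between the IHC groups, 3 were 2-fold or more lower in Exp cells and 7 within 2-fold. The 2 genes higher in Exp OHCs were the transcription factor genes Neurod6 (log2 ratio 7.09) and Bcl11b (1.46). The efferent receptor genes Chrna9 (-0.36) and Chrna10 (-0.24) lay within 2-fold between the OHC groups. Of 12 pan hair cell genes 9 lay within 2-fold, 2 were lower and 1 higher, with a median of 0.28. Gfi1 was at 85.8 CPM in Exp OHCs and 199 CPM in Ctrl OHCs, and Atoh1, whose alleles differ between the groups, at 98.1 CPM in Exp OHCs and 28.4 CPM in Ctrl OHCs.

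Markers of other cell types moved with the OHC groups. The 10 supporting cell markers summed to 36.4 CPM in Exp OHCs (0 to 327 CPM per cell) and 111 CPM in Ctrl OHCs (0 to 1638), with 6 of 10 at 1 CPM or more in both groups. Tectb made up 58.8 CPM of the sum in Ctrl OHCs, and of 7 markers above the filter 3 were 2-fold or more higher and 2 lower in Exp OHCs (median log2 ratio 0.24). The 6 neuron markers summed to 838 CPM in Exp OHCs (216 to 1455) and 384 CPM in Ctrl OHCs (51.5 to 896), with 4 of 6 at 1 CPM or more in Exp OHCs and 3 of 6 in Ctrl OHCs. Of the 3 above the filter, the neurofilament genes were 2-fold or more higher in Exp OHCs: Nefl was at 292 CPM in Exp OHCs and 103 CPM in Ctrl OHCs, and Nefm at 351 CPM in Exp OHCs and 78.3 CPM in Ctrl OHCs. The other, Snap25, was the highest neuron marker in Ctrl OHCs at 203 CPM and was nearly equal in Exp OHCs (log2 ratio -0.06). The 5 immune markers summed to 275 CPM in Exp OHCs (0 to 789) and 110 CPM in Ctrl OHCs (0 to 476), with 3 of 5 at 1 CPM or more in Exp OHCs and 1 of 5 in Ctrl OHCs. Hair cells also express several neuron markers, and of the immune markers C1qb made up 267 CPM in Exp OHCs and 109 CPM in Ctrl OHCs. Glia, mesenchyme, erythroid and endothelial markers each summed to under 10 CPM in every group. Both immune markers above the filter were 2-fold or more higher in Exp OHCs, C1qb with a log2 ratio of 1.29 and the macrophage gene Cd68 with 3.49, at 6.37 CPM in Exp OHCs and 0.568 CPM in Ctrl OHCs. Ptprc, a gene of all leukocytes, was at 1.14 CPM in Exp OHCs and 0.01 CPM in Ctrl OHCs. C1qa, which immune cells express with C1qb, and the neuron marker Prph had 0 counts in Exp OHCs and in Ctrl OHCs, and the macrophage receptor gene Csf1r had 0 counts in Exp OHCs and 0.721 CPM in Ctrl OHCs. The part of these markers in the results was not tested. Without the 7 Exp OHCs and 10 Ctrl OHCs at 100 CPM or more of supporting cell markers, 4 of the 7 effector genes were again 2-fold or more lower, the log2 ratio of Slc26a5 was -3.65 and cells with 2 or fewer genes made up 40.8% of Exp OHCs and 3.03% of Ctrl OHCs. Without the 1 Ctrl OHC highest in Neurod6 the log2 ratio of Slc26a5 was -3.80 and the number of genes 2-fold or more lower was again 4.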

How the data were processed

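Full-length cDNA of 163 hand-picked cochlear hair cells was sequenced, 1 library per cell. The deposited values are raw counts per gene and cell, which the authors made with HISAT2 2.2.1, SAMtools and featureCounts 2.0.1 on mm10, per the submitters' processing notes. Neither the annotation and strand setting nor the handling of multi-gene reads is given in the sources used here. Gene IDs were matched without their version to GENCODE names (55034 of 55291, 99.5%), and the unmatched IDs held 0.0128% of counts. No 2 columns were identical, no doublet caller was run on these picked cells, and the authors' cell filter is not stated.

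Each group's counts were added up and scaled to the group total (CPM). With 1 sample a group, no count model was fitted, although counts would allow edgeR with replicates. Where a group had 0 counts, 3 counts for the whole group stood in as a floor and the ratio was a bound. For medians of single cells the floor was 3 counts in a cell of median total counts, and a lower median was raised to it. No ratio was given where both sums were at or under the floor. Comparisons were Exp against Ctrl in OHCs and in IHCs, and OHC against IHC in Ctrl and in Exp cells. Ratios and intervals were run on data simulated with the same Poisson counting error that they assume. That checks the code and does not bear on the spread between these cells. Lengths and coordinates are from GENCODE M21 (GRCm38). Promoters are from RefSeq (GRCm38.p6).

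The 7 genes and the lists were chosen with earlier results of these data known. The text names all 7 genes, up to 3 genes each way of a list at 20 CPM or more in either group, and the 10 genes most like Slc26a5. A listed gene at 20 CPM or more in all 4 groups could be named too. Genes named outside that rule, among them Slc26a2, Slc26a8, Tbx2, Cygb, Txndc5 and Gm15772, were chosen after their values were seen. Alternatives were edgeR 4.0.16 TMM factors, median-of-ratios factors, means and medians of single cells, other filters and presence limits, thinning, and subsets of cells. Python 3.11.15, scipy 1.17.1, pandas 2.3.3, matplotlib 3.10.9 and R 4.3.3 were used.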

Additional observations from a re-analysis of the deposited data

Results flagged for a closer look

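Slc26a5 and Prcd had genotype ratios of opposite sign in the 2 cell types. The log2 ratio of Exp over Ctrl cells was -3.77 in OHCs and 0.37 in IHCs for Slc26a5, a difference of -4.14. For Prcd it was 0.17 in OHCs and -1.80 in IHCs, a difference of 1.97. Both genes were under 1 CPM in each IHC group, where Prcd had 3 counts in Exp and 10 in Ctrl cells. A single Exp IHC held 71.8% of its group's Slc26a5 counts, and without the highest cell of each IHC group the Slc26a5 ratio was -0.88. With 1 sample a group, neither difference was tested.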

How the results depend on the processing

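No ratio of 2-fold or more in the main run changed sign under an alternative, where a ratio was given. The 4 genes 2-fold lower in Exp OHCs became between 3 and 5. Ratios under 2-fold did change sign. In OHCs, Ephx4 went from -0.03 to 0.67 in cells with Xist, and Prcd from 0.17 to a bound of -6.16 with medians of cells. In IHCs, Slc26a5 went from 0.37 to -0.88 without the highest cell of each group. No paired analysis was possible because no result comes from a test and no label pairs cells between groups. Cells low in Gm15772 bore consecutive numbers within each group, and the labels do not say what the numbers follow. The cause of the moves below was not tested.

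The median log2 ratio of Exp over Ctrl OHCs was -2.77. It was -2.83 with median-of-ratios factors, -2.68 with means of single cells, -2.97 without the highest cell of each group and -1.75 with a 10 CPM filter. With medians of single cells it was -6.31, a value over 6 genes that is set by the bounds of Prcd and Ephx4. It was -2.95 in cells with Y-linked transcripts, -2.64 in cells with Xist, -3.10 in cells low and -2.30 in cells high in Gm15772, -2.73 without the Ctrl OHC highest in Neurod6 and -2.72 without cells with supporting cell markers, the last chosen after seeing the data.

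The median of Exp over Ctrl IHCs, -0.90, rests on 2 genes. It was -0.995 with TMM factors, -0.97 with median-of-ratios factors, -0.95 with means and -1.11 with medians of single cells, and -0.95 without mitochondrially encoded genes. Without the highest cells it was -1.07, in cells with Y-linked transcripts -1.77, with Xist -1.08, low in Gm15772 -1.58, high in Gm15772 -1.20, without supporting cell markers -0.98 and with no filter -1.80. The count of 1 gene 2-fold lower became 2 in cells with Y-linked transcripts and 2 in cells low in Gm15772, and 5 with no filter, where 7 genes count instead of 2.

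The median of Ctrl OHCs over Ctrl IHCs was 8.88. It was 9.59 without the highest cells and 10.22 both in cells with Xist and in cells high in Gm15772. With medians of cells it was 5.76, over 6 genes and set by the floor for Prcd and Ephx4 in Ctrl IHCs. For Exp OHCs over Exp IHCs the median was 7.53. It was 2.98 with medians of cells, where only 3 genes had a ratio and 2 instead of 6 were 2-fold higher. It was 6.84 both in cells with Y-linked transcripts and in cells low in Gm15772, 7.30 with Xist, 7.22 high in Gm15772 and 5.06 with a 10 CPM filter.

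The share of cells with 2 or fewer genes was 41.1% in Exp OHCs and 2.33% in Ctrl OHCs. With a presence limit of 50 CPM it was 67.9% in Exp OHCs and 100% in Exp IHCs (96.2% at 10 CPM), with 5 CPM 0% in Ctrl OHCs, and with 1 CPM 0% in Ctrl OHCs and 78.9% in Ctrl IHCs (100% at 10 CPM). In cells with Y-linked transcripts, as in cells low in Gm15772, it was 25% in Exp OHCs, 0% in Ctrl OHCs and 100% in Exp IHCs. Cells with 1 or fewer genes made up 16.1% of Exp OHCs, 0% of Ctrl OHCs, 38.5% of Exp IHCs and 23.7% of Ctrl IHCs. Cells with 0 genes made up 0% of Exp OHCs, 0% of Ctrl OHCs, 7.69% of Exp IHCs and 0% of Ctrl IHCs.

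Thinning each cell to 5000000 counts left the presence calls as they were, which does not bear on how much RNA was captured per cell. Cells low in Gm15772 all had Y-linked transcripts, so these subsets overlap. Genes with under 50 counts in IHCs have wide counting intervals.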
